A study of Mus musculus with 8 samples.

Results

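The 10 genes described here handle zinc in brown adipose tissue (BAT). They are the metallothionein genes Mt1 and Mt2, the zinc-sensing transcription factor gene Mtf1, the importer genes Slc39a14, Slc39a8, Slc39a1 and Slc39a7, and the exporter genes Slc30a1, Slc30a5 and Slc30a9. They were taken by gene name from a count table of 56953 genes, and each name had 1 row. RNA was sequenced from the BAT of 8 wild-type C57BL/6J mice that were 8 to 10 weeks old at injection, with 1 library per mouse. The 4 control (CTR) mice received PBS under the skin of the flank, and the 4 mice with cancer-associated cachexia (CAC) received 3000000 Lewis Lung Carcinoma (LLC) cells, a transplantable mouse lung tumor line, and were followed for 21 days. Injected animals without a tumor were left out by the authors. Animals were male or female, and the sex behind each library is not given.

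Metallothioneins are small cytosolic proteins whose many cysteines hold zinc and copper ions. MTF1 senses free zinc and switches on metallothionein genes and Slc30a1 through short DNA sites called metal response elements (MREs). Glucocorticoids and inflammatory cytokines also induce metallothioneins. Transporters of the SLC39 (ZIP) family move zinc into the cytosol from outside or from organelles. Most of the SLC30 (ZnT) family move it out of the cytosol. ZIP14, the product of Slc39a14, is known from the wasting muscle of tumor-bearing mice.

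Mt1 (ENSMUSG00000031765.9) and Mt2 (ENSMUSG00000031762.8) lie side by side on the plus strand of chromosome 8 of GRCm38. Mt2 runs from 94172664 to 94173568 and Mt1 from 94179082 to 94180327, with 5513 bases between them. The coding sequences of their main transcripts in GENCODE M21 are shown because the reads of such close relatives could be confused. Each coding sequence is spread over 3 exons, spans 186 bases with the stop codon, and holds 20 cysteine codons, which are in capitals and stand at the same 20 codons in both genes.
Mt1: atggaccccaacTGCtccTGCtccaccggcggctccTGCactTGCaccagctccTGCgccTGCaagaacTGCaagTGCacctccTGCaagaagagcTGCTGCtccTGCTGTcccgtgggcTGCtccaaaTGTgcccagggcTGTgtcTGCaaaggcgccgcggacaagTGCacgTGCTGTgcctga
Mt2: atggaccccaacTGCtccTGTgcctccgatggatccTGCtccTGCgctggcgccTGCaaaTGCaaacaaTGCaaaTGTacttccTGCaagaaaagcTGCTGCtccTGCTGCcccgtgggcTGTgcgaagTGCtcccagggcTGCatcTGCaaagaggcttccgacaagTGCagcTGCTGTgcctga
The coding sequences share 148 of 186 bases (79.6%). The longest stretch that the main transcripts share exactly is 20 bases, far under the 75 sequencing cycles of a read.

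The start regions of the metallothionein genes and of Slc30a1, the known MTF1 target among the exporters, are shown next because the metallothioneins had the largest log2 fold changes of the tested members. Each window runs from 250 bases before the start site in RefSeq (GRCm38.p6) through the 50 bases that begin with it, on the plus strand, and capitals mark matches to the MRE core. The core was searched as TGCGCNC and TGCACNC on both strands, and no matches overlapped in these 3 windows.
Mt1, chr8:94178839-94179138: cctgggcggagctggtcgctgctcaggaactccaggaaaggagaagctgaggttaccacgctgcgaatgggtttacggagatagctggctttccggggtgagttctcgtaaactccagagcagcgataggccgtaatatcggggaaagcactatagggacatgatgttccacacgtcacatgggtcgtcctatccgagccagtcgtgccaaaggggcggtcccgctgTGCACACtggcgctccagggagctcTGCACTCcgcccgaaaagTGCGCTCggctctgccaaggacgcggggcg
Mt2, chr8:94172368-94172667: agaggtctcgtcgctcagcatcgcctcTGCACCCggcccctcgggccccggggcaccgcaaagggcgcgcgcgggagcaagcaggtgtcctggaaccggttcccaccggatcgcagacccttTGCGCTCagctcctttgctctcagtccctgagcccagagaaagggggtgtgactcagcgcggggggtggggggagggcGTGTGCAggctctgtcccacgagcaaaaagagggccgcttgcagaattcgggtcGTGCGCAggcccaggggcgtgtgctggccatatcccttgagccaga
Slc30a1, chr1:191906531-191906830: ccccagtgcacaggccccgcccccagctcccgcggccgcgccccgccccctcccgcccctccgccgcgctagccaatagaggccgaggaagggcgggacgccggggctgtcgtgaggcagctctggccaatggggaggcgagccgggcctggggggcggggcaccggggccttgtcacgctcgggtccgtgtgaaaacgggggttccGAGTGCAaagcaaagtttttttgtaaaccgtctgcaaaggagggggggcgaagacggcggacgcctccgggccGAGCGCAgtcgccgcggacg
The Mt1 window held 3 matches, the Mt2 window 4 and the Slc30a1 window 2. Of all 32851 RefSeq start windows of this length, 25.7% held at least 1 match, 7.11% at least 2 and 1.97% at least 3. A window was given for 9 of the 10 genes, with 2 windows for Slc39a8. Slc39a8, in its second window, and Slc30a5 held 1 match each, and the windows of Mtf1, Slc39a1, Slc39a7 and Slc30a9 held 0. A match describes the letters of the window only, and binding of MTF1 was not measured. The Mt1 window ends at 94179138 and its coding sequence begins at 94179311. For Mt2 these positions are 94172667 and 94172848. The bases in between were not searched, so MREs nearer to the coding sequence would be missed.

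**Figure D1:**
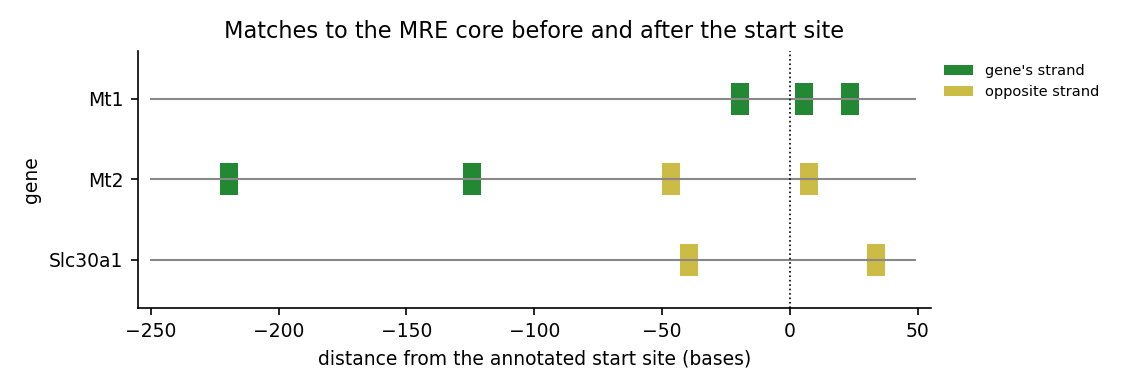
Matches to the MRE core in the start windows of Mt1, Mt2 and Slc30a1, plotted by distance in bases from the annotated start site (dotted line). Green boxes are matches on the strand of the gene and yellow boxes on the opposite strand. The 3 matches of Mt1 sit near this RefSeq start site while the 4 of Mt2 are spread over the window. Bases between the window and the coding sequence were not searched.

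Library depth was 2454493 to 4827956 counts in CTR and 1823167 to 3392538 in CAC. Values are given as CPM, the counts of a gene per 1000000 counts of its library in the tested genes, scaled by TMM, a factor that balances the libraries for composition, and the limit set by 0 reads, taken as 3 counts, came to 0.66 to 1.62 CPM. Brown adipocyte markers (Ucp1, Cidea, Adipoq, Fabp4, Plin1 and Lipe) summed to 15918 to 17587 CPM in CTR and 15435 to 17622 CPM in CAC, and all 6 passed the low-count filter. Of these, Plin1, the main lipid droplet coat protein gene, averaged 664 CPM in CTR mice and 550 CPM in CAC mice (edgeR adjusted p = 0.192, unadjusted p = 0.00841). Its groups did not overlap, which held for 7.04% of all tested genes in either direction. Among other cell types, all 6 skeletal muscle markers, all 5 erythrocyte markers and the 6 of 7 macrophage markers that passed the filter had positive log2 fold changes in CAC. Of these, C1qa and C1qb had an adjusted p under 0.05 in edgeR's test, against 0.739% of all tested genes called higher. An unadjusted p under 0.05 was reached by 4 muscle, 4 erythrocyte and 4 macrophage markers, against 7.01% higher among all genes. Of 8 neutrophil markers, S100a8, S100a9 and Retnlg passed the filter and were called, but at 3.57, 1.6 and 1.02 CPM on average in CTR they were low there and high in CAC, so their direction is no independent count. The 5 endothelial markers summed to 223 to 294 CPM in CTR and 187 to 261 CPM in CAC. The 6 fibroblast and progenitor markers summed to 380 to 467 and 360 to 484 CPM. Of the 10 tested genes of these lists, 0 were called, against 0.932% of all genes. Kdr alone had an unadjusted p under 0.05, lower in CAC, against 12.9% of all genes in either direction. These counts are near the background. In bulk tissue, more cells of a type and more RNA per cell cannot be told apart.

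Mt1 was higher in CAC than in CTR, and Mt2 had a larger log2 fold change that did not pass the test. Of the 10 genes, 7 passed the low-count filter and were tested, and Mt1 alone had an adjusted p under 0.05, higher in CAC. Across the 9876 genes tested with edgeR's quasi-likelihood test and Benjamini-Hochberg adjustment, 0.932% reached that threshold in either direction, 0.739% higher and 0.192% lower. With an unadjusted p under 0.05, Mt1 and Mt2 were higher and 0 members were lower, against 7.01% higher and 5.93% lower among all genes. The median log2 fold change of the 7 tested members was -0.014, and that of all tested genes was -0.000047.

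Mt1 had 2128, 2799, 1951 and 4300 reads in CTR libraries 1 to 4 and 2128, 2204, 3998 and 3433 in CAC libraries 1 to 4. Scaled to depth, it was at 766, 745, 810 and 948 CPM in CTR and at 1150, 1172, 1172 and 1197 CPM in CAC. Every CAC library lay above every CTR library, which holds for 3.64% of all tested genes in this direction and for 7.04% in either. CTR mice averaged 817 ± 91.2 CPM and CAC mice 1173 ± 19.0 CPM (SD, n = 4 per group). On the log2 scale Mt1 rose by 0.52, with a standard error of 0.09, a 95% interval of 0.33 to 0.71 and an edgeR adjusted p of 0.00606. This is a rise of 1.43-fold, with an interval of 1.25 to 1.64-fold. The CAC mice lay closer together than the CTR mice, of which library 4 was the highest. Mt1 kept an adjusted p under 0.05 in each of the 8 edgeR fits that left out 1 library, with the highest value, 0.0487, without CTR replicate 1.

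For Mt2, CTR libraries held 411, 432, 315 and 916 reads, and CAC libraries 366, 442, 822 and 893. Its CPM values were 148, 115, 131 and 202 in CTR and 198, 235, 241 and 311 in CAC. Only CTR library 4 and CAC library 1 overlapped, so 3 of 4 CAC libraries lay above all of CTR. CTR mice averaged 149 ± 37.8 CPM and CAC mice 246 ± 47.4 CPM (SD, n = 4 per group). The log2 difference was 0.72, with a standard error of 0.18, a 95% interval of 0.33 to 1.12 and an edgeR adjusted p of 0.101. As a fold change, 1.65, it had an interval of 1.26 to 2.17. The call depended on the test, the low-count filter, a block on the replicate number and 1 library. DESeq2 gave an adjusted p of 0.00675, edgeR with no filter on low counts 3.04e-07, and edgeR with the block 0.00173. Without CTR replicate 4, edgeR gave 0.00106 with a log2 fold change of 0.92. Over all settings tried the adjusted p ranged from 3.04e-07 to 0.232.

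**Figure D2:**
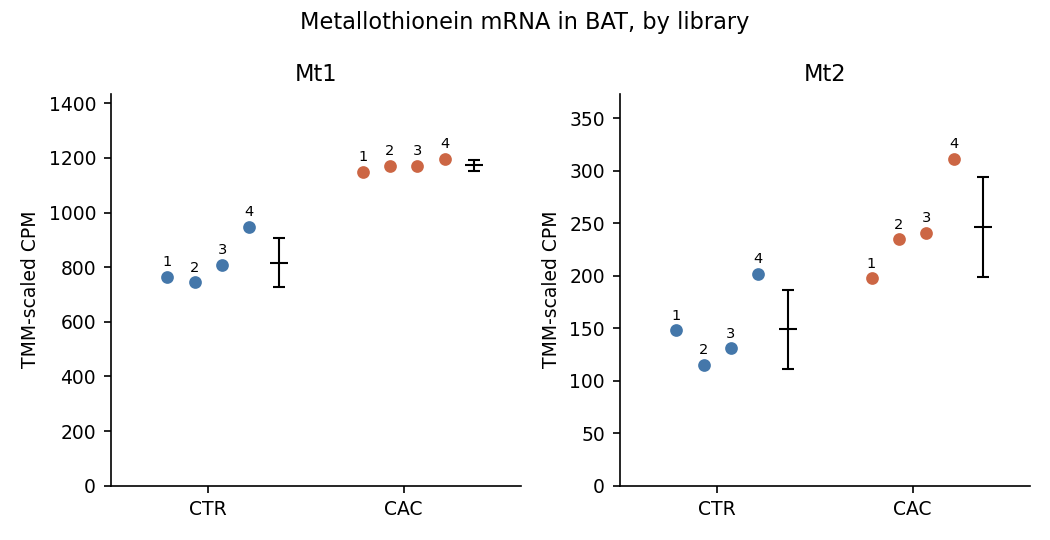
Mt1 and Mt2 in TMM-scaled CPM by library, with the replicate number above each point and the mean and SD beside each group of 4 mice. All 4 CAC points of Mt1 lie above the CTR points, whereas for Mt2 the highest CTR point (202 CPM) lies above the lowest CAC point (198 CPM).

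Both metallothioneins ranked the libraries alike at the top. Replicate 4 was the highest for both genes in CTR and again in CAC. Together the pair took 0.09% to 0.11% of all counts in CTR libraries and 0.13% to 0.15% in CAC libraries. The number of Mt2 reads per 100 Mt1 reads was 19.3, 15.5, 16.1 and 21.3 in CTR and 17.2, 20.03, 20.5 and 26.02 in CAC. The groups overlapped in this ratio. The log2 ratio of Mt2 to Mt1 averaged -2.48 ± 0.22 for CTR mice and -2.27 ± 0.25 for CAC mice (SD, n = 4 per group), and the difference of 0.21 was no larger than the spread within the groups (p = 0.2 by exact permutation, two-sided, where 0.0286 is the smallest possible). Per kilobase of main transcript (549 bases for Mt1 and 511 for Mt2), the level of Mt1 came to 1489 ± 166 CPM for CTR mice and 2136 ± 34.6 CPM for CAC mice, and that of Mt2 to 291 ± 74.0 and 482 ± 92.7 CPM (SD, n = 4 per group). Whether the kit reads whole transcripts or their ends is not given in the sources used here, so the comparison of levels between the genes rests on this scaling.

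Mt2 has an annotated antisense partner. Its exons share 432 bases with Gm45774 on the opposite strand, and the strand setting of the counting is not given in the sources used here, so their reads cannot be told apart. Gm45774 averaged 26.3 ± 4.95 CPM in CTR mice and 40.1 ± 10.6 CPM in CAC mice (SD, n = 4 per group), with a log2 difference of 0.62 and an edgeR adjusted p of 0.102. Exons of Mt1 overlap no other annotated gene. How many reads the counting divided between places cannot be read from the table.

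Marker lists of other cell types are given here beside the metallothioneins. The 8 neutrophil markers summed to 6.12 to 6.64 CPM in CTR and to 429, 184, 282 and 164 CPM in CAC libraries 1 to 4. Nearly all of this sum was S100a8 (175 CPM on average in CAC) and S100a9 (73.5 CPM), genes that other cells can also express. The authors saw S100A9 protein within brown adipocytes, more strongly in CAC. They found no significant difference between the groups in numbers of immune cells or neutrophils. The other 6 markers had lower levels. Retnlg averaged 1.02 CPM in CTR mice and 10.7 CPM in CAC mice, Ngp 0.16 and 2.21 CPM and Cxcr2 0 and 1.87 CPM. Each was without overlap, which held for 3.64% of all tested genes in this direction. These genes were low in CTR, and nothing is read from the count. Ltf averaged 0.09 and 1.00 CPM, and Camp and Ly6g had 7 and 2 reads over all 8 libraries. In CAC libraries 1 to 4, Mt1 stayed between 1150 and 1197 CPM, and Mt2 was at 198, 235, 241 and 311 CPM. The 5 erythrocyte markers summed to 6180 to 19266 CPM in CTR and 14631 to 44312 CPM in CAC, the 7 macrophage markers to 195 to 216 and 270 to 369 CPM, and the 6 skeletal muscle markers to 948 to 2391 and 2076 to 3900 CPM. The macrophage and neutrophil sums did not overlap between the groups, and the erythrocyte and muscle sums did. No marker of these lists was at 0 in every library, although Ly6g, Camp and Cxcr2 had 0 counts in all CTR libraries. The part of these cells in the metallothionein levels was not tested.

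**Figure D3:**
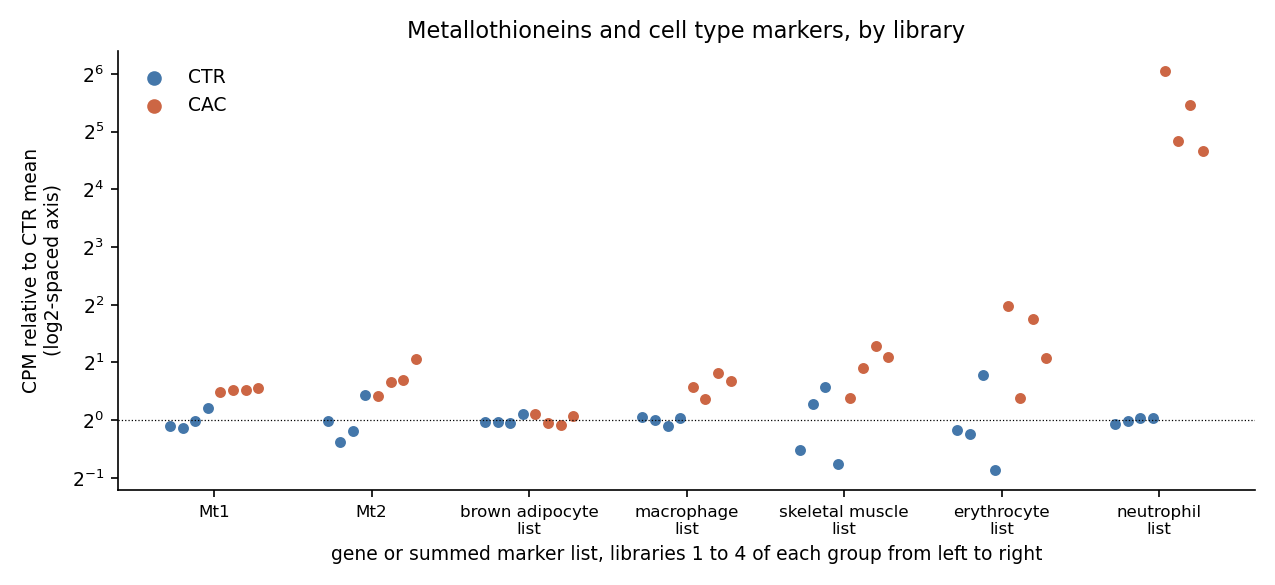
Mt1, Mt2 and the summed CPM of 5 marker lists in each library, relative to the mean of the CTR libraries, on an axis spaced by log2, with libraries 1 to 4 of each group from left to right. Mt1 in CAC lies in a narrow band from 1.41 to 1.46 times the CTR mean, while the neutrophil sum ranges from 25.5 to 66.6 times and the brown adipocyte sum from 0.94 to 1.07 times.

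Mtf1 (ENSMUSG00000028890.14, chromosome 4, 124802104 to 124849800, plus strand) encodes the zinc sensor that drives metallothionein transcription, and its RNA did not pass the test. It was at 27.0, 26.9, 31.5 and 25.6 CPM in CTR and 29.2, 19.1, 29.0 and 30.7 CPM in CAC. Only CAC library 2 lay outside the range of CTR, below it. The log2 fold change was -0.014 (95% interval -0.33 to 0.31, edgeR adjusted p = 0.984). Exons of Mtf1 share 721 bases with 1110065P20Rik on the opposite strand, which averaged 17.5 ± 1.18 CPM in CTR mice and 15.6 ± 2.84 CPM in CAC mice (SD, n = 4 per group).

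Among the importers, Slc39a14 (ENSMUSG00000022094.16, chromosome 14, 70303469 to 70351425, minus strand) carries zinc, manganese and iron into cells. It stayed below the low-count filter, with 7, 7, 1 and 7 reads in CTR and 8, 3, 12 and 9 in CAC. These equal 2.52, 1.86, 0.41 and 1.54 CPM in CTR and 4.32, 1.595, 3.52 and 3.14 CPM in CAC. CAC libraries 1, 3 and 4 lay above all of CTR, and CAC library 2 lay inside the CTR range. CTR mice averaged 1.59 ± 0.88 CPM and CAC mice 3.14 ± 1.14 CPM (SD, n = 4 per group), which did not pass an exact two-sided permutation test (p = 0.0857). The summed reads were 22 in CTR and 32 in CAC. Scaled to the summed depth of each group, their ratio of CAC to CTR was 1.96. Its exact 95% binomial interval of 1.10 to 3.54 covers counting error only. When edgeR was run with no filter, the log2 fold change of Slc39a14 was 0.93 (unadjusted p = 0.049, adjusted p = 0.517). Of 6 skeletal muscle markers, 0 were called in edgeR's test, against 0.932% of all genes. With an unadjusted p under 0.05, 4 were higher in CAC, against 7.01% of all genes. Myh4 and Tnnc2 did not overlap between the groups, against 3.64% of all tested genes in this direction, while the sums of the markers did. The muscle sums were 1112, 1943, 2391 and 948 CPM in CTR libraries 1 to 4 and 2076, 2987, 3900 and 3425 CPM in CAC libraries 1 to 4. The part of muscle in Slc39a14 reads was not tested.

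Slc39a8 (ENSMUSG00000053897.16, chromosome 3, 135825279 to 135888572, plus strand) encodes ZIP8, the closest relative of ZIP14. It had 5, 4, 1 and 2 reads in CTR and 4, 1, 1 and 5 in CAC, so no library held more than 5 reads. The summed reads were 12 in CTR and 11 in CAC. Scaled to the summed depth of each group, their ratio of CAC to CTR was 1.23. Its exact 95% binomial interval of 0.49 to 3.06 covers counting error only. The exact two-sided permutation test of CPM gave p = 0.714.

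Slc39a1 (ENSMUSG00000052310.10, chromosome 3, 90248172 to 90253612, plus strand) encodes ZIP1, a widely expressed importer of the cell surface. Its values were 30.9, 29.3, 31.5 and 22.0 CPM in CTR and 30.3, 24.5, 27.0 and 27.2 CPM in CAC, and all CAC values fell within the CTR range. The log2 fold change was -0.05 (95% interval -0.36 to 0.26, edgeR adjusted p = 0.935).

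Slc39a7 (ENSMUSG00000024327.17, chromosome 17, 34028269 to 34031682, minus strand) encodes ZIP7, which releases zinc from the endoplasmic reticulum and Golgi. It was at 16.6, 17.6, 17.4 and 20.7 CPM in CTR and 17.3, 18.6, 15.8 and 18.1 CPM in CAC. Values of both groups were intermingled, with a log2 fold change of -0.07 (95% interval -0.40 to 0.27, edgeR adjusted p = 0.912). Of its 2584 exonic bases, 2084 are shared with Gm20427 on the same strand, which held more reads, with averages of 80.4 ± 4.26 CPM in CTR mice and 80.8 ± 8.24 CPM in CAC mice (SD, n = 4 per group). The level of Slc39a7 is therefore uncertain, since reads of the shared exons cannot be assigned.

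Among the exporters, Slc30a1 (ENSMUSG00000037434.8, chromosome 1, 191906767 to 191913247, plus strand) encodes ZnT1, which pumps zinc out across the cell membrane. Its values were 18.4, 14.6, 21.6 and 19.0 CPM in CTR and 15.7, 20.2, 14.7 and 25.1 CPM in CAC. CAC library 4, the highest for Mt1 and Mt2, was also the highest for Slc30a1, but the other 3 CAC libraries lay within the CTR range. The log2 fold change of Slc30a1 was 0.05 (95% interval -0.34 to 0.45, edgeR adjusted p = 0.945). Its exons share 468 bases with 1700034H15Rik on the opposite strand, which had at most 1 read in any library.

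Slc30a9 (ENSMUSG00000029221.16, chromosome 5, 67306955 to 67358443, plus strand) encodes ZnT9, a mitochondrial zinc exporter. It was at 39.2, 42.6, 44.0 and 43.2 CPM in CTR and 41.6, 41.5, 43.1 and 37.6 CPM in CAC. The CAC library with the lowest Slc30a9 was number 4, and the other 3 lay within the CTR range. The log2 fold change was -0.05 (95% interval -0.29 to 0.20, edgeR adjusted p = 0.918), the narrowest interval among the transporters tested.

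Slc30a5 (ENSMUSG00000021629.11, chromosome 13, 100802648 to 100833427, minus strand) encodes ZnT5, which loads zinc into enzymes of the secretory pathway together with ZnT6. It did not pass the filter, with 10, 8, 5 and 14 reads in CTR and 1, 6, 9 and 13 in CAC. The averages were 2.72 ± 0.75 CPM for CTR mice and 2.73 ± 1.66 CPM for CAC mice (SD, n = 4 per group, exact two-sided permutation p = 1 on CPM). The summed reads were 37 in CTR and 29 in CAC. Scaled to the summed depth of each group, their ratio of CAC to CTR was 1.06. Its exact 95% binomial interval, for counting error only, was 0.63 to 1.76. Of Mtf1 and the 4 tested transporters, Slc30a9 had the narrowest 95% interval, from 0.82-fold to 1.15-fold, and Slc30a1 the widest, from 0.79-fold to 1.36-fold. Counting error and the spread between mice both enter these intervals, and their parts were not separated.

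**Figure D4:**
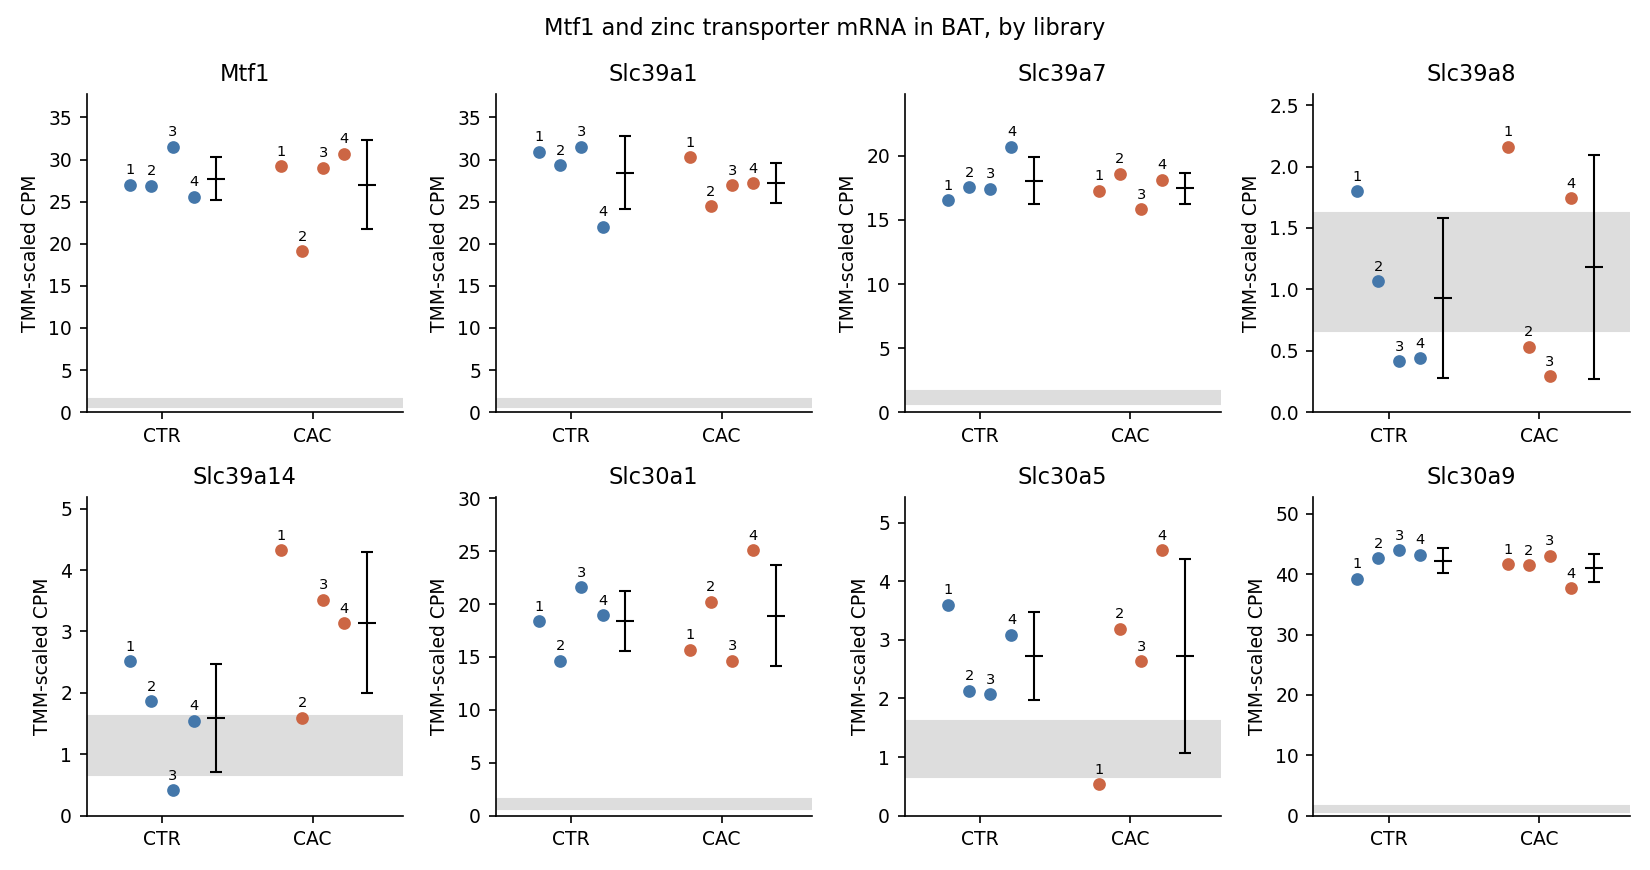
Mtf1 and the 7 transporter genes in TMM-scaled CPM by library, with replicate numbers above the points, the mean and SD beside each group of 4 mice, and a gray band for the CPM that 3 counts give (0.66 to 1.62). CTR and CAC points overlap in every panel, and Slc39a8 lies mostly at or below the band.

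Most of the remaining genes of these families were too low to test. Of 19 other genes (Mt3, Mt4, 10 ZIP genes and 7 ZnT genes), 8 were tested, and 0 had an adjusted or unadjusted p under 0.05 in edgeR's test, against 0.932% and 12.9% of all genes, a count near the background. Their log2 fold changes ran from -0.37 for Slc30a7 to 0.39 for Slc39a10, with a median of 0.05. The smallest p values belonged to Slc39a10 (log2 fold change 0.39, 95% interval -0.27 to 1.05, edgeR adjusted p = 0.656), Slc39a11 (0.20, interval -0.17 to 0.56, adjusted p = 0.692) and Slc30a7 (-0.37, interval -1.21 to 0.47, adjusted p = 0.76). Mt3, the neural metallothionein, and Mt4, that of squamous epithelium, had 0 counts in all 8 libraries, as did Slc30a3, Slc30a8 and Slc30a10, which allows up to 0.66 to 1.62 CPM per library.

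**Figure D5:**
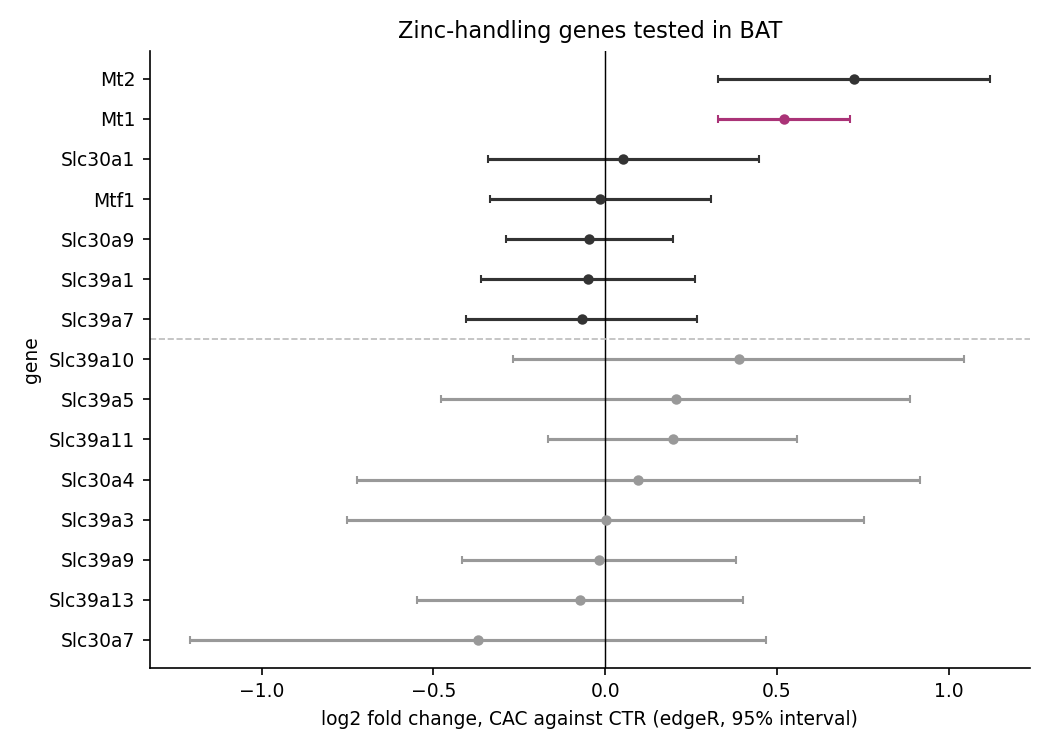
Log2 fold change of CAC against CTR with its 95% interval from edgeR for the 7 tested members, above the dashed line, and for 8 other ZIP and ZnT genes, below it. Mt1, in magenta, has an adjusted p under 0.05, Mt2 lies farther to the right with a wider interval, and the intervals of all 13 other genes include 0.

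Genes whose pattern was most like that of Mt1 were sought among 8624 tested genes with a mean of at least 5 CPM, by Pearson correlation of log2 CPM over the 8 libraries, which share depth and group with Mt1. Those with the highest r were Pvr (0.97), C1qa (0.96), Arhgap32 (0.96), Gpx3 (0.96) and Gpam (0.96). Since the groups do not overlap in Mt1, genes chosen for likeness to it separate the groups too, and their differences are a description. C1qa, a macrophage complement gene, and Gpx3, a secreted glutathione peroxidase, had log2 fold changes of 0.83 and 0.70, Pvr 0.65, Arhgap32 0.58 and Gpam, an enzyme of triglyceride synthesis, 0.33. Mt2 came 30th in this order (r = 0.92), and the other tested members had r between -0.42 and 0.16.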

How the data were processed

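RNA was measured in the BAT of 4 CTR and 4 CAC mice, grouped by their labels. The authors aligned the reads to mm10 with HISAT2 2.2.1 after FastQC 0.11.9 and counted them with featureCounts with its multi-mapping option. The deposited expected counts hold fractions of reads (25.1% to 28.4% of nonzero values per library) without normalization, and were rounded before testing. A second deposited table holds a signal that the authors made by dividing counts, cut to whole numbers, by 1 DESeq2 size factor per library. Checked in every library, 100% of its values for genes with a unique name equal that quotient within 1 part in 1000000.

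edgeR 4.0.16 in R 4.3.3 kept 9876 genes by filterByExpr, scaled them by TMM and tested CAC against CTR by the robust quasi-likelihood test, two-sided, with no covariate, Benjamini-Hochberg adjustment over all tested genes and a threshold of 0.05. Standard errors and 95% intervals were derived from its F statistic. Genes below the filter were compared by exact permutation of CPM over the 70 assignments of the libraries. The code was tested on simulated data. P-values set the difference between the groups against the variation between libraries. In edgeR this variation includes counting error, and its estimate draws on all tested genes.

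Coordinates and exon overlaps came from GENCODE M21 (GRCm38), matched by Ensembl ID without version (91.4% of IDs, all 10 members), start windows from RefSeq GRCm38.p6. The members and gene lists were chosen with earlier results of these data known. The text names all members, the called genes of each of the 5 other gene lists (zinc, copper, glucocorticoid, IL-6 and STAT3, NRF2) or otherwise its 3 genes of smallest p, and the 5 genes most like Mt1. Cell type markers are given as sums. Single markers, genes with 0 counts and overlapping genes were named after their values were seen. Alternatives were DESeq2 1.42.0, other normalizations, filters, rounding and thresholds, blocking on the replicate number, the limma 3.58.1 trend method on log2 of the deposited signal plus 1, and each library left out. Those for genes below the filter were chosen after seeing the data. Figures used matplotlib 3.10.9 and pandas 2.3.3 under Python 3.11.15.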

Additional observations from a re-analysis of the deposited data

Results flagged for a closer look

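Mtf1 was at 19.1 CPM in CAC library 2, against 29.0 to 30.7 CPM in the other 3 CAC libraries, a gap of 86% of the range of the group. It was the only such library among 22 groups of 4 checked (the 10 members and the ratio of Mt2 to Mt1), and chance gives about 1 in 20. The value rests on 36 reads.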

How the results depend on the processing

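The Mt1 log2 fold change stayed between 0.48 and 0.61 with an edgeR, DESeq2 or limma adjusted p under 0.05 in all 17 alternatives. Mt1 and Mt2 were the members called with DESeq2, with no filter and with the replicate number as a block. Over all genes tested, these fits called 116 of 9876, 351 of 23730 and 140 of 9876. When each library was left out, 1 to 2 members were called, against 42 to 135 of all genes tested. The cause was not tested. The block gave Mt2 an adjusted p of 0.00173 and 140 called genes in place of 92. Same-numbered libraries deviated together with a correlation of only -0.023 to 0.036, and 2 of 4 correlated best with their own number, so the numbers were not taken as pairs. The number of called genes was 351 with no filter, 183 at a threshold of 0.1, 30 at 0.01, and 42 (without CTR replicate 1) to 135 (without CTR replicate 3) with 1 library left out. The Mt2 to Mt1 difference kept its sign, from 0.10 to 0.30 with 1 library left out.

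Values near 0 changed sign with 1 library left out: Mtf1 (-0.075 to 0.10), Slc30a1 (-0.13 to 0.18), Slc30a9 (-0.080 to 0.0011), Slc39a1 (-0.16 to 0.00018), Slc39a7 (-0.11 to 0.022), Slc39a8 (-0.11 to 0.88) and Slc30a5 (-0.35 to 0.35), all on the log2 scale. Slc30a5 was also negative with upper quartile scaling (-0.018) and in the deposited signal (-0.00063). Slc39a14 stayed between 0.67 and 1.30, with an exact permutation p of 0.0571 to 0.171. Slc39a14, Slc39a8 and Slc30a5 had few reads, and what part of their spread came from depth was not tested.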

Other observations

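Genes of pathways known to induce metallothioneins, and genes of copper, the other metal they bind, were read from the same fit as lists. Of 7 glucocorticoid targets tested, 6 had positive log2 fold changes, with a median of 0.46 against -0.000047 over all tested genes, and 1 was called higher, against 0.739% of all genes. The list was tested whole, but Fkbp5 averaged only 2.21 CPM in CTR mice against 5.08 CPM in CAC mice and may have passed the filter through CAC, so nothing is read from the count. Per1, a clock gene that glucocorticoids also induce, averaged 5.54 ± 1.33 CPM in CTR mice and 16.6 ± 0.82 CPM in CAC mice (SD, n = 4 per group), and rose by 1.53 on the log2 scale (adjusted p = 0.0003 in edgeR). Of 7 tested genes of the IL-6 and STAT3 pathway, 6 had positive log2 fold changes, with a median of 0.31, and 0 were called in edgeR's test, while 4 had an unadjusted p under 0.05 and were higher, against 7.01% of all genes. Of these 4, Osmr (1.87 CPM on average in CTR) and Cebpd (3.37 CPM) were low in CTR and may have passed the filter through CAC, so nothing is read from the count. Stat3, the transcription factor of the pathway, averaged 81.3 ± 5.50 CPM in CTR mice and 106 ± 3.87 CPM in CAC mice (SD, n = 4 per group). Its groups did not overlap, against 3.64% of all tested genes in this direction, and edgeR gave an adjusted p of 0.0881. The co-receptor gene Il6st had a log2 fold change of 0.31 (adjusted p = 0.258) and the oncostatin M receptor gene Osmr one of 1.10 (adjusted p = 0.259).

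Of 4 tested NRF2 targets, which respond to oxidative stress, 0 had an adjusted or unadjusted p under 0.05 in edgeR's test, against 0.932% and 12.9% of all genes, a count near the background. The 3 with the smallest p were Gclc, Srxn1 and Gclm, with log2 fold changes of -0.27, 0.06 and 0.08. Of 11 copper-handling genes tested, 0 were called in edgeR's test, and 1 in each direction had an unadjusted p under 0.05, against 0.932% called and 7.01% higher and 5.93% lower among all genes, so these counts are near the background. Cox17, a copper chaperone of cytochrome c oxidase, averaged 137 ± 29.5 CPM in CTR mice and 84.5 ± 18.5 CPM in CAC mice (SD, n = 4 per group), with a log2 difference of -0.69 and an edgeR adjusted p of 0.0658. Sco2, another assembly factor of the same enzyme, had a log2 fold change of 0.55 (adjusted p = 0.326), and Commd1, a regulator of copper export, one of -0.63 (adjusted p = 0.404).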
